A study of Mus musculus with 8 samples.

Results

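Immediate-early genes (IEGs) are genes whose transcription starts within minutes of a stimulus, without new protein being made first. Many encode transcription factors, such as the FOS and JUN proteins that pair to form AP-1, EGR1 and KLF4. Growth factors, neuronal activity and stress switch them on, and they are also known to be switched on while tissue is taken apart with enzymes. In the dentate gyrus of the hippocampus, neural stem cells (NSCs) are radial glia that are mostly quiescent and that share many genes with astrocytes.

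The cells described here were hippocampal cells chosen by a gate meant for NSCs and then divided by how much of their RNA came from the 4 IEGs Fos, Junb, Egr1 and Klf4. Members had over 500 genes and under 10% mitochondrial UMIs (unique molecular identifiers, each counted as 1 captured mRNA). They had at least 3 of the 6 astroglial genes Aldoc, Slc1a3, Slc1a2, Gja1, Ntsr2 and Hopx. S100b, Aqp4, Gjb6, Grin2c and Hsd11b1, which mark mature astrocytes, held under 0.1% of their UMIs. At most 1 of 7 genes of other lineages (Mog, Mag, Cx3cr1, Cldn5, Pdgfra, Stmn2 and Eomes) was detected, and at most 2 of 10 genes of the cell cycle. The gate left 4150 members of 26036 barcodes, of which 24376 passed the filter on genes and mitochondrial UMIs. Within each library, members were ranked by the summed share of Fos, Junb, Egr1 and Klf4. The top 25% are called IEG-high (1034 cells) and the bottom 50% IEG-low (2072 cells). The 1044 cells between them were left out of the comparison.

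All mice were on a mixed C57BL/6J/CD1 background and carried Nestin-GFP, which is active in NSCs and in some other cells, Ki67-creERT2, an inducible recombinase made in dividing cells, and a tdTomato reporter that recombination turns on. All received tamoxifen on 6 days and were culled on day 8, so there was no untreated group. Several mice were pooled in each of 7 experiments, 1 at the age of 1 month, 3 at 2 months and 3 at 6 months (6 to 8 months in the series' own description). The sorted cells were GFP+tdT+ and GFP+tdT-, except that the first experiment at 2 months gave 2 libraries, 1 of GFP+tdT- cells and 1 labelled GFP+tdT+ and GFP-tdT-. The 2 months libraries were made with Version 2 chemistry and all others with Version 3, so age and chemistry cannot be told apart between those ages. The 8 libraries held between 4861883 and 43826338 UMIs, and the members' median was between 1301 and 7950.5 UMIs per cell. Of the members, 7 had a cell barcode that also occurs in another library, and 0 shared it with another member. All cells passed through enzymatic dissociation and sorting, so transcripts present in the animal and transcripts made during preparation cannot be told apart.

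The data went against the stem cell label for a large share of the members. Of the 4150, 2280 (54.9%) were rich in astroglial RNA, which was set here as at least 0.5% of UMIs from the 6 astroglial genes and at most 2 of the 5 markers Pdgfra, Cspg4, Olig1, Olig2 and Sox10. These 5 genes mark oligodendrocyte precursors, and 1679 members (40.5%) carried at least 3 of them. The other 191 (4.6%) met neither limit. In the astroglial-rich members, Hopx, a homeodomain gene of quiescent NSCs, averaged 3861 ± 2878 CPM (UMIs of a gene per 1000000 UMIs of the cells; mean ± SD, n = 7 experiments). Thrsp averaged 1729 ± 317 CPM and Sox9, a glial transcription factor, 434 ± 115 CPM. In the members with precursor markers, Hopx was at 53.8 ± 56.8 CPM, Sox9 at 15.8 ± 21.3 CPM and Olig1, a transcription factor of the oligodendrocyte lineage, at 3457 ± 469 CPM. Sox2 and Fabp7 differed less. Sox2 was at 564 ± 198 CPM in astroglial-rich members and 298 ± 104 CPM in those with precursor markers, and Fabp7 at 2094 ± 632 and 1545 ± 309 CPM. Hopx and Olig1 helped to set the limits of both kinds, so their contrast is partly built in. Sox9 and Thrsp did not, and Thrsp was at 76.9 ± 87.1 CPM in the members with precursor markers. Both kinds are therefore kept apart below and are called astroglial-rich members and members with precursor markers. Each was also ranked anew by itself, which gave 567 IEG-high and 1139 IEG-low astroglial-rich members and 417 and 838 members with precursor markers.

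The mixture differed between experiments. Members with precursor markers made up between 4.32% and 24.6% of the members in 5 experiments, but 76.4% in the second and 74.8% in the third experiment at 6 months. The mean share over experiments was 24.6% in the IEG-high and 33.0% in the IEG-low class, a difference of -8.41 percentage points ± 10.8 (SD, n = 7). An exact two-sided sign-flip test over the experiments gave an adjusted p of 0.125, with 3 experiments higher and 4 lower.

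**Figure D1:**
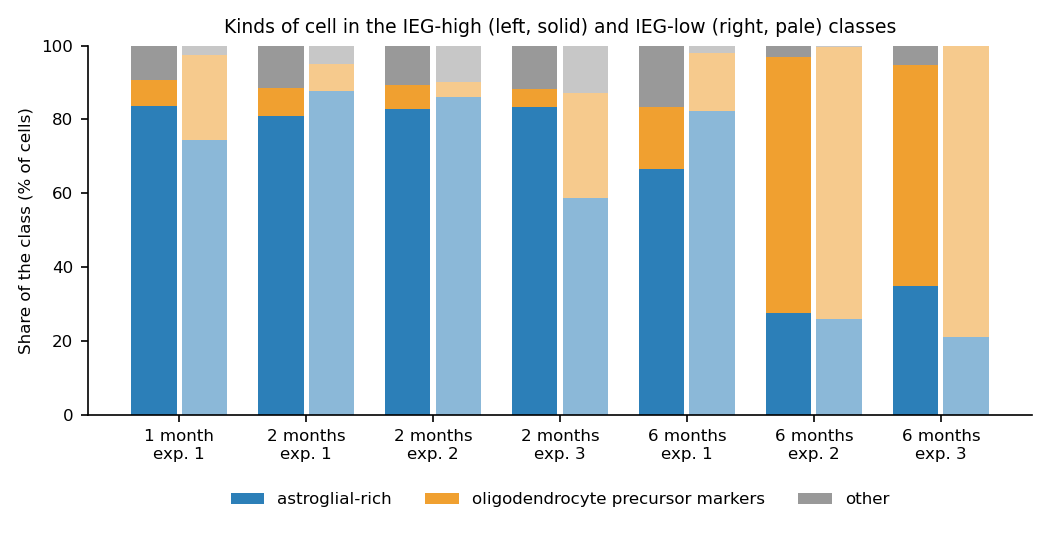
Share of cells (%) of each kind in the IEG-high class (left bar, solid) and the IEG-low class (right bar, pale) of each of 7 experiments. Members with precursor markers hold most of both classes in experiments 2 and 3 at 6 months.

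The ranking genes themselves are given as a description, since their values chose the classes. Fos (GRCm38, chr12:85473890-85477273) held the most UMIs of the 4. Its level in the IEG-high class was between 1519 and 5766 CPM over the 7 experiments, with a median of 2641, and in the IEG-low class between 0 and 27.5 CPM. Junb, a partner of FOS in AP-1, was between 294 and 1391 CPM in the IEG-high class, with a median of 666, and at most 13.7 CPM in the IEG-low class. Egr1, a zinc finger factor, was between 183 and 616 CPM in the IEG-high class and at most 3.21 CPM in the IEG-low class. Klf4, a Krüppel-like factor, was the lowest of the 4, with 29.0 to 162 CPM in the IEG-high class and 2 UMIs in all IEG-low cells together. The classes do not overlap for any of the 4, as the ranking ensures.

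The IEG-low class was in large part a class of cells in which none of the 4 genes was detected. Of all members, 2171 had 0 UMIs of the 4 genes, and so had 1860 of the 2072 IEG-low cells. In 5 of the 8 libraries over 50% of the members were at 0, so the lower limit fell among tied cells. Of the IEG-high cells, 55 had 1 UMI and 3 had 0, all 3 in the library labelled GFP+tdT+ and GFP-tdT-. Detection of 3 or all 4 genes in the same cell was common in the IEG-high class (35.9% and 18.4% of cells). In all, 261 members lay between 0.8 and 1.25 times the lowest IEG-high value of their library, 54 of them at 0 in the library just named, where that value was 0. In the third experiment at 6 months, for example, the lowest IEG-high cell was at 0.109% of UMIs and the cell just outside at 0.108%.

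**Figure D2:**
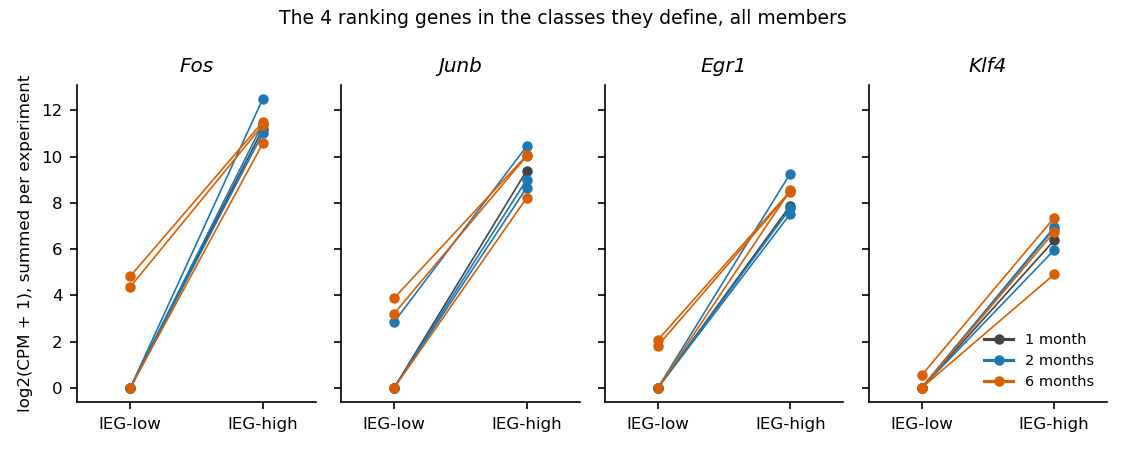
Level of the 4 ranking genes, as log2(CPM + 1) of UMIs summed per experiment, in the IEG-low and the IEG-high class of all members. Each line is 1 of 7 experiments, coloured by age, and every line rises because these genes were the ones used for the ranking.

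A test of the 4 genes needs classes that they did not make. When the members were ranked by Jun, Ier2, Btg2 and Atf3, which also respond early, all 4 were higher in the top 25% than in the bottom 50% in 7 of 7 experiments. Fos averaged 2640 ± 1215 CPM in the top 25% and 91.8 ± 71.3 CPM in the bottom 50%, a log2 fold change of 4.88 ± 0.15 (SE). Junb differed by 4.63 ± 0.13, Egr1 by 4.87 ± 0.16 and Klf4 by 5.20 ± 0.17 on the log2 scale. The adjusted p was at most 2.32e-13 for these 4 genes in edgeR's quasi-likelihood test, in a comparison in which 4.06% of 4580 genes were called higher. In astroglial-rich members ranked in that way, the values were 5.13 for Fos, 5.04 for Junb, 5.26 for Egr1 and 5.75 for Klf4. As a further description, each cell's UMIs were divided at random into 2 parts, one to rank the cells and the other to measure them. Fos was then at 2742 ± 1299 CPM in the IEG-high and 59.5 ± 30.9 CPM in the IEG-low class, a ratio of 46.1, and the 4 genes were higher in 7 of 7 experiments. Both parts come from the same cells and the same 4 genes, so this is not a test of them.

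The summed share of the 4 genes was 0.125% ± 0.0568 of UMIs in all members (SD, n = 7) and 0.180% ± 0.106 in the astroglial-rich ones. Among cells outside the gate, named by at least 3 of 5 markers, it was 0.0331% ± 0.0338 in astrocytes and 0.0505% ± 0.0197 in oligodendrocyte precursors. Endothelial cells stood higher at 0.524% ± 0.373. All members together were above astrocytes and above oligodendrocyte precursors in 7 of 7 experiments, and below endothelial cells in 7 of 7. Each adjusted p was 0.026 in the exact sign-flip test (5 cell types). The unadjusted p of 0.0156 is the smallest that 7 experiments allow. Members with precursor markers alone were not always above precursors outside the gate. They were lower at 1 month (0.0225% against 0.0541%) and in experiment 1 at 6 months (0.0359% against 0.0600%). They were higher in experiments 1 (0.0336% against 0.0271%) and 3 (0.0640% against 0.0492%) at 2 months. At 6 months they were higher in experiments 2 (0.109% against 0.0827%) and 3 (0.0748% against 0.0549%). Experiment 2 at 2 months held too few, and no test was run. Oligodendrocytes were at 0.0655% ± 0.0387 in the 6 experiments that held enough of them, below the members in 6 of 6 (adjusted p = 0.0391, exact sign-flip test). That call was lost when 2 of 5 markers named the cells, with 0.108% ± 0.0807 (adjusted p = 0.391, exact sign-flip test). It was also lost for the astroglial-rich members alone, which were higher in 5 of 6 (adjusted p = 0.0781, exact sign-flip test). Microglia reached 0.952% ± 0.363, in only 2 experiments, where no test can pass 0.05.

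By mean level the order was microglia, endothelial cells, astroglial-rich members, all members, oligodendrocytes, oligodendrocyte precursors and astrocytes. Microglia and endothelial cells were not tested against each other, nor were the 3 glial types below the members, whose ranges of mean ± SD overlap. Between ages, the level in the members was 0.0945% at 1 month, 0.147% ± 0.0831 at 2 months and 0.113% ± 0.0374 at 6 months (SD, n = 3 each for the later ages). An exact permutation test of 6 against 2 months gave p = 0.7, where the smallest p that the design allows is 0.1. The third experiment at 2 months was the highest, at 0.241%, and the first at 6 months the lowest, at 0.0711%.

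**Figure D3:**
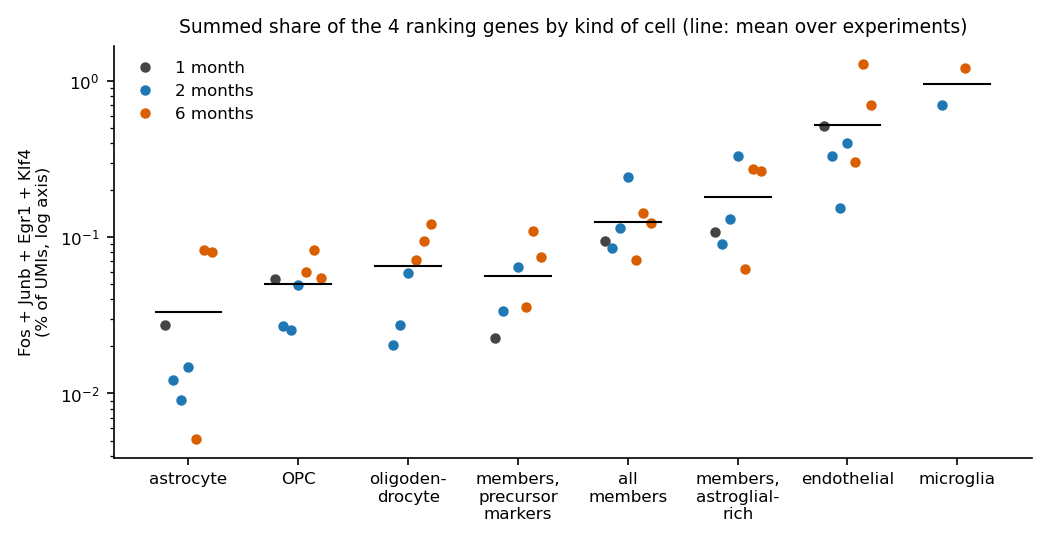
Summed share of Fos, Junb, Egr1 and Klf4 in percent of UMIs (log axis) for 8 kinds of cell, with 1 point per experiment coloured by age and a line at the mean. Astroglial-rich members average 0.180%, against 0.0331% in astrocytes and 0.524% in endothelial cells.

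Across the other genes, the UMIs of each class were summed per experiment and compared with the experiment as a block. The 4 ranking genes were removed first. In all members, 266 of 4594 genes were called higher in the IEG-high class (5.79%) and 400 lower (8.71%), at an adjusted p under 0.05 in edgeR's quasi-likelihood test. In astroglial-rich members, 93 of 3291 were higher (2.83%) and 153 lower (4.65%), and 121 higher and 123 lower with total UMIs in place of TMM scaling. A gene was tested where 20% of the cells of either class held a UMI of it, so a gene could enter through the class in which it was high, and its call is then partly set by this filter. That was so for 61 of the 266 genes higher in all members and 26 of the 93 in astroglial-rich members, and for 81 of the 400 and 16 of the 153 lower. After thinning to 1000 UMIs, 42 of the 93 could still be tested and 16 were called. In members with precursor markers, 199 of 6319 were higher (3.15%) and 187 lower (2.96%). Of the 93 genes higher in astroglial-rich members, 78 (83.9%) were also among the 266 called in all members (29.3% of those). Of the 153 lower, 79 (51.6%) were among the 400 (19.8% of those). Astroglial-rich members are a part of all members and were ranked by the same genes, so these overlaps are in part built in. Without the third experiment at 6 months, 270 genes in place of 666 were called in all members and 117 in place of 246 in astroglial-rich ones. Without the second experiment at 6 months it was 348 in all members, and without the 1 month experiment 322.

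The cells of both classes differed in depth and RNA measures as well. In all members, the median number of UMIs per cell was higher in the IEG-high class by 0.28 on the log2 scale ± 0.17 (SD) in 7 of 7 experiments (adjusted p = 0.0438, exact sign-flip test). In astroglial-rich members the difference was 0.43 ± 0.19, again in 7 of 7 (adjusted p = 0.0234, exact sign-flip test). A cell with few UMIs is more often at 0 for the ranking genes, so depth is not independent of the ranking. With every cell thinned to 1000 UMIs, which left out 9 IEG-high and 54 IEG-low cells, the median number of genes per cell was 679 in the IEG-high and 683 in the IEG-low class, against 2152 and 1947 before thinning. The mitochondrial share of UMIs in astroglial-rich members was 4.26% in the IEG-high and 5.45% in the IEG-low class, lower by 1.19 ± 0.862 percentage points (SD) in 7 of 7 experiments (adjusted p = 0.0234, exact sign-flip test). In all members it differed by -0.545 ± 0.548 points (adjusted p = 0.0547, exact sign-flip test). The part of depth and RNA quality in the gene results was not tested, beyond the thinned values given with them.

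Of 11 listed bZIP factors, which bind DNA as pairs joined by a leucine zipper, 5 were tested in all members and in astroglial-rich members. Of these, Fosb, Cebpb and Cebpd entered only through the IEG-high class, so their rise was partly set by the filter. Jun and Jund were also detected in 20% of IEG-low cells, and both rose. Jun, the founding JUN protein, was between 1622 and 4086 CPM in IEG-high and between 141 and 347 CPM in IEG-low astroglial-rich members. The classes did not overlap, and the log2 fold change was 3.35 ± 0.12 (adjusted p = 1.31e-26, edgeR). Jund, a JUN protein present in many resting cells, was between 773 and 3233 CPM against 337 and 791 CPM, ranges that overlap, with 7 of 7 experiments higher and a log2 fold change of 1.73 ± 0.14. Fosb, a close relative of FOS, lay between 12.6 and 302 CPM in the IEG-high class, while the IEG-low class of astroglial-rich members held 3 UMIs of it in all. In all members, with 53 UMIs in the IEG-low class, its log2 fold change was 5.10 ± 0.18 (adjusted p = 4.19e-12, edgeR). Cebpb and Cebpd, factors of inflammatory and stress responses, had log2 fold changes of 1.41 ± 0.20 and 1.63 ± 0.16 in astroglial-rich members.

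Zinc finger factors and nuclear receptors were less often abundant enough to test. Of 13 factors on that list, which also held Bhlhe40, a helix-loop-helix factor, 4 were tested in all members. Among these, Klf2 and Bhlhe40 entered only through the IEG-high class. Of the other 2, Klf6 rose and 1 was not called. Klf6, a Krüppel-like factor of injury responses, was between 75.4 and 473 CPM in IEG-high and between 11.7 and 49.1 CPM in IEG-low astroglial-rich members, a log2 fold change of 1.83 ± 0.19, but there it too entered only through the IEG-high class. Klf2, a Krüppel-like factor best known from endothelium, was at 4.70 ± 0.20 in all members, higher in 6 of 7 experiments, and was too rare in astroglial-rich members to be tested. Summed CPM of 7 microglial markers was higher in the IEG-high class of all members in 7 of 7 experiments, with medians of 53.1 and 32.5. It lay between 37.0 and 610 in the IEG-high and between 29.5 and 45.1 in the IEG-low class. The sum of 7 endothelial markers was higher in the IEG-high class in 4 of 7, with medians of 47.3 and 43.8. In astroglial-rich members the microglial sum was higher in 5 of 7, with medians of 44.4 and 32.5, and 2 of its 7 markers were at 0 in the IEG-high class. With no UMI of any other-lineage gene allowed, 101 of 3310 genes were called higher and 168 lower. The part of RNA from other cells in these differences was not tested further.

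Of 20 listed genes that respond rapidly but belong to neither list above, 10 were tested in astroglial-rich members. Of these, 5 were detected in 20% of IEG-low cells, and all 5 rose, with a median log2 fold change of 1.07. The others, Ier2, Btg2, Cyr61, Ppp1r15a and Mcl1, entered only through the IEG-high class, and 4 of them were called higher. Of the 9 genes called in all, 5 could be tested after thinning, Btg2 and Cyr61 among them, and those 5 were called again. In all members 11 were tested, and 4 of the 5 detected in 20% of IEG-low cells rose. Ier2, an early gene of growth stimulation, was between 151 and 543 CPM in IEG-high and between 3.20 and 25.3 CPM in IEG-low astroglial-rich members. The classes did not overlap (log2 fold change 4.59 ± 0.20, adjusted p = 6.58e-24, edgeR). Btg2, which restrains the cell cycle, was between 218 and 1173 CPM against 30.8 and 140 CPM (3.16 ± 0.17). Cyr61, a secreted matrix protein and target of YAP and SRF, was between 157 and 1191 CPM against 14.3 and 44.3 CPM (4.27 ± 0.18). Rhob, a small GTPase of the cytoskeleton, rose by 1.45 ± 0.11, also without overlap. Ppp1r15a, which recruits a phosphatase that restarts translation after stress, rose by 2.40 ± 0.21, higher in 6 of 7 experiments. Gem, a small GTPase, rose by 1.64 ± 0.14, and Adamts1, a secreted protease that was not on the list, by 2.75 ± 0.19. Adamts1 had 75 UMIs in all 1139 IEG-low cells together, so it too entered only through the IEG-high class.

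Genes that shut the response down were mixed. Of 16 listed regulators of mRNA decay and signalling feedback, 9 were tested in all members, among which Dusp1, Socs3 and Nfkbia entered only through the IEG-high class and Spry4 only through the IEG-low class. Of the other 5, 1 rose and 1 fell. Dusp1, a phosphatase that inactivates MAP kinases, was between 138 and 1891 CPM in IEG-high and between 8.80 and 81.7 CPM in IEG-low astroglial-rich members. It had the largest change after Fosb, at 4.67 ± 0.14 (adjusted p = 2.5e-30, edgeR), and 3.78 ± 0.19 after thinning. In astroglial-rich members too, Dusp1 entered only through the IEG-high class, so its rise was partly set by the filter. Socs3, which blocks cytokine signalling through STAT3, was at 3.79 ± 0.19 in all members. Zfp36l1, which binds AU-rich mRNAs and hastens their decay, rose by 1.17 ± 0.13 in astroglial-rich members and fell by 0.24 on the log2 scale in members with precursor markers. Spry4 and Spred1, inhibitors of growth factor signalling, were called lower in all members. None of the 8 neuronal activity genes listed was called, and 1 was abundant enough to be tested.

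Promoters of 3 of the largest changes held a full cyclic AMP response element (CRE), the site of CREB, in the window from 250 bases before to 50 after the start site. The stretches before the start site are shown because each of these genes rose beside the ranking genes, with the CRE in capitals (GRCm38.p6, RefSeq starts, minus strand, written 5′ to 3′).
Dusp1, chr17:26508588-26508635: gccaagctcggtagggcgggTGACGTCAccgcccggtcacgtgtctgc
Btg2, chr1:134079294-134079341: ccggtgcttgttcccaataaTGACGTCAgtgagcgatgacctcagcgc
Ppp1r15a, chr7:45526269-45526300: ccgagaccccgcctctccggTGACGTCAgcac

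The element starts 143 bases before the start site of Dusp1, 166 before that of Btg2 and 12 before that of Ppp1r15a. The CRE (TGACGTCA, the same on both strands) was in 12 of the 198 promoters found for genes called higher in all members (6.06%). It was in 164 of 3635 tested genes (4.51%) and in 549 of 27025 genes with a promoter in the table (2.03%). The CArG box, the site of SRF, was in 8 of the 198 (4.04%), in 1.54% of tested genes and in 1.81% of all genes with a promoter. The AP-1 site (TGACTCA, both strands) was in 6.57% and 3.85%, and in 5.95% of all genes with a promoter. Of the 65 promoters found for genes higher in astroglial-rich members, 2 held the AP-1 site (3.08%) and 7 the CRE (10.8%). The EGR site (GCGTGGGCG, both strands) was in 0.505% of the 198, in 1.24% of tested genes and in 0.707% of all genes with a promoter. Windows of Fos, Junb, Klf4, Fosb, Jun, Socs3, Adamts1, Klf6, Jund, Coq10b, Cebpb, Sox4 and Rhob held none of these letters. No window of Egr1 was examined, and none is given here for Ier2, Cyr61, Gem, Cebpd, Klf2 or Hes1, some of which changed as much. These shares are descriptions with no test.

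Heat shock and stress genes rose in part and by less. Of 13 listed heat shock genes and chaperones, 9 were tested in all members and 5 rose, and 7 were tested in astroglial-rich members and 3 rose (Hsp90aa1, Hsp90ab1 and Hspa8). After thinning, none of these 3 was called in astroglial-rich members (adjusted p = 0.217, 0.208 and 0.0634, edgeR). Hsp90aa1, a cytosolic chaperone, was between 513 and 832 CPM in IEG-high and between 319 and 501 CPM in IEG-low members, without overlap, and rose by 0.61 ± 0.08, or by 0.35 after thinning. Dnajb1, the HSP40 partner of HSP70, which entered only through the IEG-high class, was at 1.05 ± 0.15. Of 9 genes of the unfolded protein and integrated stress responses, 5 were tested in all members, and 2 of the 3 detected in 20% of IEG-low cells rose. In astroglial-rich members 1 of 4 was called, Ddit4, an inhibitor of mTOR signalling, at 0.78 ± 0.16, which entered only through the IEG-high class. Of 10 glucocorticoid targets, 1 of 4 tested was called in all members (Tsc22d3, at 0.56 ± 0.13, which entered only through the IEG-high class) and 0 of 3 in astroglial-rich ones. In those 3 the median was -0.14, against 0.0027 for all genes.

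Of 14 listed genes of Notch signalling and of the Id family, 10 were tested in astroglial-rich members and 5 rose (Hes1, Hes5, Hes6, Id2 and Id3), with a median of 0.36. The other 5 (Nrarp, Notch1, Notch2, Id1 and Id4) were not called, and 8 of the 10 were above 0. After thinning, 3 of the 5 could be tested and 2 were called. Hes1, the Notch effector that represses proneural genes, was between 200 and 876 CPM in IEG-high and between 11.7 and 252 CPM in IEG-low cells. It was higher in 7 of 7 experiments, with ranges that overlap, and its log2 fold change was 1.83 ± 0.15 (adjusted p = 6.5e-14, edgeR; 1.43 ± 0.18 thinned). Hes5, another Notch effector, rose by 0.67 ± 0.12 in 6 of 7. Id2 and Id3, which bind and block proneural factors, rose by 0.65 ± 0.12 and 0.45 ± 0.14, and Id2 lost its call after thinning (0.54, adjusted p = 0.102, edgeR). Id4, which keeps NSCs quiescent, was at 0.21 (adjusted p = 0.2, edgeR).

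Stem cell and progenitor genes moved in part. Of 20 listed genes of quiescent NSCs, 18 were tested in astroglial-rich members, 6 rose and 3 fell. Over all genes there, 2.83% were called higher and 4.65% lower. The list as a whole did not shift, with a median of 0.0025 against 0.0027 for all genes and 9 of the 18 above 0. Those that rose were Sox2, Sox9, Vim, Lpar1, Nfix and 1500015O10Rik. Sox9 rose by 0.56 ± 0.11, Vim, an intermediate filament of radial glia, by 0.54 ± 0.11, and Lpar1, a receptor for lysophosphatidic acid, by 0.73 ± 0.15. After thinning, Sox9 was at 0.50 (adjusted p = 0.0243, edgeR), while Vim at 0.29 and 1500015O10Rik at 0.04 were not called (adjusted p = 0.203 and 0.934, edgeR). Those that fell were Clu, Mt3 and Fgfr3, a growth factor receptor of astroglia, the last with a log2 fold change of -0.71 ± 0.14. Of 17 genes of activated NSCs and progenitors, 8 were tested and 5 were called higher (Sox4, Sox11, Ccnd2, Stmn1 and Tubb5). After thinning, Stmn1 at 0.16 and Tubb5 at 0.20 were not called (adjusted p = 0.549 and 0.542, edgeR). Sox4, a transcription factor of neuronal commitment, was between 107 and 1153 CPM in IEG-high and between 79.2 and 303 CPM in IEG-low cells, and higher in all 7 experiments (log2 fold change 1.56 ± 0.12, adjusted p = 1.18e-14, edgeR; 1.57 ± 0.18 thinned). Sox11, its relative, which entered only through the IEG-high class, was at 1.10 ± 0.22, higher in 6 of 7.

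Of 4 reporter elements, 3 were tested in astroglial-rich members and 2 were called higher. WPRE is a sequence element at the end of the tdTomato transcript, and it was between 62.7 and 170 CPM in IEG-high and between 24.8 and 70.0 CPM in IEG-low astroglial-rich members. It was higher in 7 of 7 experiments (1.23 ± 0.18, adjusted p = 1.56e-06, edgeR), but entered only through the IEG-high class. The eGFP transcript rose by 0.41 ± 0.10, and lost its call after thinning (0.22, adjusted p = 0.277, edgeR). The element tdTomatoLoxP was at 0.15 (adjusted p = 0.418, edgeR). In all members, cells called recombined from reads over the reporter locus made up 6.19% of the IEG-high and 2.07% of the IEG-low class. This share was higher in 6 of 7 experiments and equal in 1 (adjusted p = 0.0438, exact sign-flip test). In classes ranked on thinned UMIs, with the reporter still read at full depth, the adjusted p was 0.0547 (exact sign-flip test). In astroglial-rich members the shares were 3.1% and 0.775% (adjusted p = 0.112, exact sign-flip test). Cells with a UMI of any of the 10 cell-cycle genes, of which the gate allows 2, made up 36.2% of the IEG-high and 30.1% of the IEG-low astroglial-rich members. Their share was higher in 7 of 7 experiments (adjusted p = 0.0234, exact sign-flip test). In all members these cells made up 41.2% and 35.0%, higher in 6 of 7 (adjusted p = 0.0438, exact sign-flip test). In classes ranked on UMIs thinned to 1000 per cell they made up 39.4% and 36.2% (adjusted p = 0.131, exact sign-flip test). The cell-cycle genes were still counted at full depth there, so depth was not made equal for this measure.

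**Figure D4:**
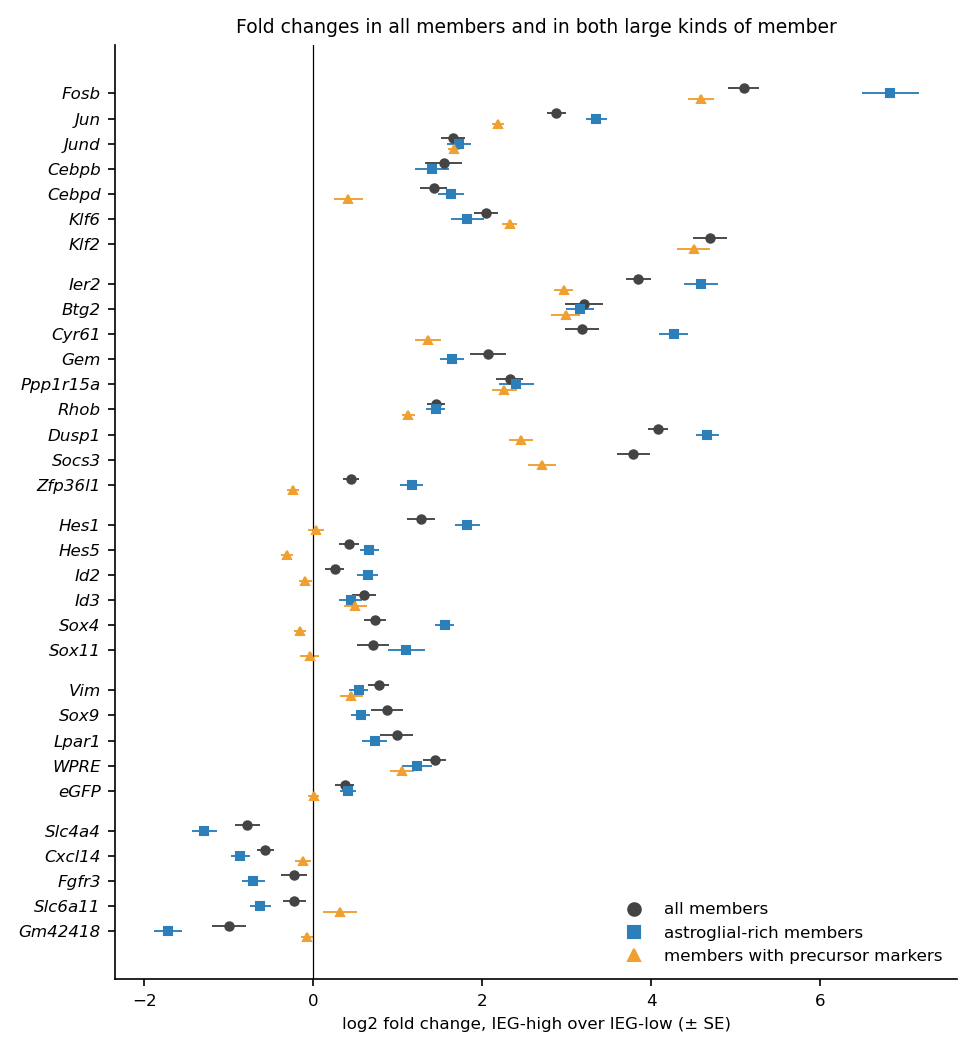
Log2 fold change of the IEG-high over the IEG-low class (x axis, ± SE from edgeR) for named genes in all members, in astroglial-rich members and in members with precursor markers. A missing symbol is a gene too rare to be tested there, and the Fosb value in astroglial-rich members rests on 3 UMIs in the IEG-low class. Hes1, Sox4 and Zfp36l1 lie to the right of 0 in astroglial-rich members and near or to the left of it in members with precursor markers.

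Among the genes lower in IEG-high astroglial-rich members, Slc4a4, a sodium bicarbonate transporter, was between 18.2 and 151 CPM in IEG-high and between 72.2 and 352 CPM in IEG-low cells, and was lower in the IEG-high class in all 7 experiments (log2 fold change -1.29 ± 0.15, adjusted p = 8.26e-09, edgeR). Cxcl14, a chemokine, had a log2 fold change of -0.86 ± 0.11, and Slc6a11, a GABA transporter, one of -0.63 ± 0.12. The gate genes Gja1, for connexin 43, and Slc1a2, for the glutamate transporter GLT-1, were at -0.69 and -0.68, given as a description since these genes helped to choose the members. Of 13 genes of fatty acid oxidation and handling, 11 were tested and 2 fell, Acsl3 and Fabp5. None of 12 tested glycolysis genes and none of 10 tested genes of cholesterol synthesis was called in astroglial-rich members. Over all genes there, 2.83% were called higher and 4.65% lower, so 0 calls in lists this short say little. In all members, 3 of 13 tested glycolysis genes (Tpi1, Gpi1 and Pkm) and 1 of 10 of cholesterol synthesis (Hmgcs1) were called higher. In members with precursor markers it was 3 of 14 (Tpi1, Gapdh and Pkm) and 0 of 10.

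The largest decrease was that of Gm42418, a lincRNA on chromosome 17 that overlaps a repeat of ribosomal RNA. In astroglial-rich members it was between 37.8 and 67.9 CPM in the IEG-high class of the 2 months experiments and between 1333 and 3667 CPM in that of the other ages. In the IEG-low class it was between 127 and 152 CPM at 2 months and between 4501 and 19766 CPM at the other ages. Its log2 fold change was -1.72 ± 0.17, lower in 7 of 7 experiments (adjusted p = 2.63e-11, edgeR), and -1.30 ± 0.21 after thinning. Of 12 tested genes encoded in mitochondria, 11 also fell in astroglial-rich members, with a median of -0.38. Of 80 tested ribosomal protein genes 3 rose, with a median of 0.21, 11 with total UMIs in place of TMM scaling and none of the 3 after thinning, while in all members 37 of 80 rose, of which 5 were called after thinning.

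**Figure D5:**
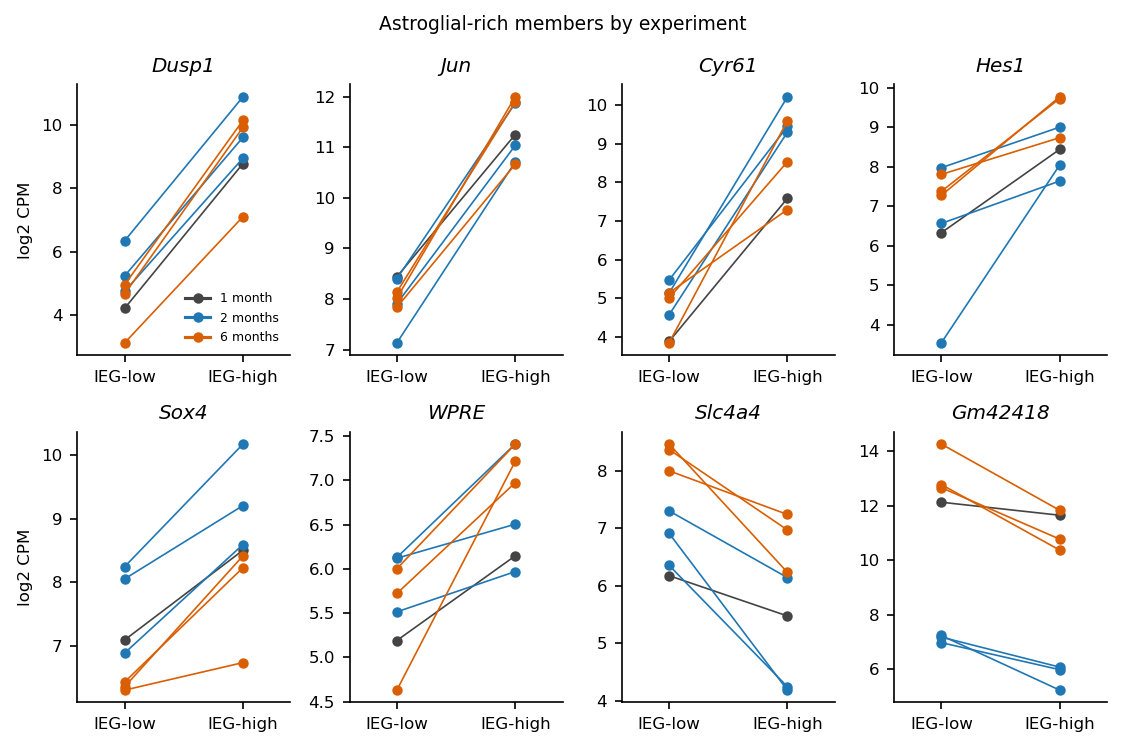
Level in log2 CPM of 8 genes or elements in the IEG-low and IEG-high classes of astroglial-rich members, with 1 line per experiment coloured by age. All 7 lines rise for Dusp1, Jun, Cyr61, Hes1, Sox4 and WPRE, and all 7 fall for Slc4a4 and Gm42418.

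In all members, markers of oligodendrocyte precursors were lower in the IEG-high class. Of 7 precursor markers, all 7 were tested and 6 fell, among them Pdgfra, which the gate used, with a median of -0.74, against -0.01 for all genes. Gria4, an AMPA receptor subunit, had a log2 fold change of -0.99 ± 0.17, Cntn1, a contactin, one of -0.90 ± 0.18, and Tnr, a matrix protein, one of -0.85 ± 0.16. In astroglial-rich members Gria4 was at most 0.779 CPM in the IEG-high class, and these 3 genes were too rare to be tested. Within members with precursor markers, where the same genes could be tested, they were at -0.40, -0.29 and -0.32 (adjusted p = 0.00111, 0.000687 and 0.000139, edgeR). The difference in the share of members with precursor markers between the classes, given above, was not called, and its part in the decreases in all members was not tested.

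The high-low difference was set against that in other cells by interaction tests. Between astroglial-rich members and members with precursor markers, 58 of 6565 genes (0.883%) differed in their response, over the 5 experiments with enough cells of both. Cyr61 rose more in astroglial-rich members by 3.12 ± 0.24 on the log2 scale, Hes1 by 2.01 ± 0.16, Sox4 by 1.83 ± 0.15, Dusp1 by 2.29 ± 0.24 and Jun by 1.33 ± 0.18. The adjusted p of these 5 genes was at most 1.7e-10 in edgeR's quasi-likelihood test. In astroglial-rich members alone, Cyr61 and Dusp1 passed the filter only through the IEG-high class, so their differences are partly set by it. Myl9, a myosin light chain of smooth muscle, and Crip1 differed the other way, by -3.17 ± 0.27 and -2.49 ± 0.24. By itself, Myl9 was not called in astroglial-rich members and was too rare to be tested in members with precursor markers. The kinds were ranked separately, and their IEG-high classes were not at like levels of the ranking genes. Mean Fos over all experiments was 3823 CPM in IEG-high astroglial-rich members and 1296 CPM in IEG-high members with precursor markers. Mean Junb was 1169 and 328 CPM. The part of this contrast in the differences in response was not tested. The early genes Jund, Btg2 and Ppp1r15a rose in both, with log2 fold changes of 1.73, 3.16 and 2.40 in astroglial-rich members and 1.67, 2.99 and 2.26 in members with precursor markers. Btg2 and Ppp1r15a entered only through the IEG-high class in astroglial-rich members. Of the 93 genes called higher in astroglial-rich members, 40 (43.0%) were among the 199 called in members with precursor markers (20.1% of those).

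A second comparison was with 2329 cells that passed the other gates but had at least 0.1% of UMIs from the mature astrocyte genes. These were not clean astrocytes, since Olig1 averaged 1672 ± 1184 CPM in them. Ranked in the same way, they differed from all members in 147 of 4664 genes (3.15%) and from astroglial-rich members in 32 of 4060 (0.788%). Against them, Dusp1 rose more in astroglial-rich members by 2.48 ± 0.26, Cyr61 by 2.71 ± 0.30, Jun by 1.61 ± 0.19, Hes1 by 1.60 ± 0.19 and Sox4 by 1.12 ± 0.17 on the log2 scale. The adjusted p was at most 1.06e-05 for these genes in edgeR's quasi-likelihood test. The limit set by the filter, given above for Cyr61 and Dusp1, holds here too. Levels of the ranking genes in the IEG-high class of these cells were not set beside those of the members, and their part was not tested. Hes1 in the astrocyte set itself was at 0.25 (adjusted p = 0.165, edgeR).

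Between ages, few genes differed in their response. In all members 3 of 4594 genes (0.0653%) rose more at 6 than at 2 months, with 376 at an unadjusted p under 0.05 in edgeR's quasi-likelihood test. They were Btg2, by 1.81 ± 0.25, Hmgb2, by 1.89 ± 0.27, and Hmgn2, by 0.98 ± 0.17, the last with an adjusted p of 0.05 that became 0.0697 with total UMIs (edgeR). In astroglial-rich members 11 of 3291 (0.334%) differed, among them Btg2, by 1.78 ± 0.32, Zfp36l1, by 1.23 ± 0.23, and Ier2, by 2.87 ± 0.63. Btg2 and Ier2 entered only through the IEG-high class, so their values are partly set by the filter. Age and chemistry cannot be told apart in these values.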

How the data were processed

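Dentate gyrus cells were sequenced with 10x Genomics single-cell chemistry. Per the labels and the methods, the authors trimmed reads with cutadapt 1.18 and mapped them with Cell Ranger 3.0.2 to mm10 with reporter sequences added. The deposited values are whole-number UMI counts, merged without normalization, with each barcode's suffix naming its library, and 0 columns were left unmapped. The members, lists and tests were chosen with earlier results of these data known.

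Counts were summed per experiment and class. Tested genes were those detected in 20% or more of the cells of 1 class, the study's own filter. The test was done with edgeR 4.0.16 (quasi-likelihood, TMM, experiment as block, Benjamini-Hochberg adjustment at 0.05, R 4.3.3). The sums held between 94217 and 4363879 UMIs in all members and between 52914 and 2245522 in astroglial-rich members. Members with precursor markers had only 3 IEG-high cells in the second experiment at 2 months and 8 in the first at 6 months. Values from the smallest sums are least precise. Measures with 1 value per experiment went into exact sign-flip or permutation tests (two-sided, scipy 1.17.1). The procedure was checked on simulated counts with 200 genes changed by a log2 value of 1. Over the 4594 genes of all members 100% of them were recovered and 4.28% of calls were false, and over the 3291 genes of astroglial-rich members 99.8% and 3.29%. Named genes were the 4 ranking genes, the 15 largest increases and decreases called with the same sign in all 7 experiments (gate genes left out), up to 4 called genes per list, up to 5 per interaction test, and reporter elements, and the same for astroglial-rich members. Id4, the gate genes, Sox2, Nfix, Clu, Mt3 and Spred1 were named beside these after their values were seen. Doublets were not called beyond the gate. The experiment pairs both classes, since they share its mice and libraries. Astroglial-rich members and members with precursor markers were set apart after the markers had been seen. Alternatives covered scaling, tool, filter, class limits, depth, gate, libraries and chemistry. Gene positions are from GENCODE M21 (GRCm38), promoters from RefSeq (GRCm38.p6).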

Additional observations from a re-analysis of the deposited data

Results flagged for a closer look

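Single experiments stood far from the others of their group in 8 of 77 groups tested, where chance alone flags about 1 in 20. In astroglial-rich members of the second experiment at 6 months, IEG-high cells had 934 more genes per cell at the median than IEG-low cells. In the third experiment at 2 months, the 4 ranking genes held 0.241% of the UMIs of all members. Ier2 had a log2 ratio of 6.34 and Gm42418 one of -2.47 in all members of the first experiment at 6 months. Spon1 stood at -6.35 in all members of the third experiment at 2 months, where Klf6 was at 5.22 and Npc1 at -5.58 in astroglial-rich members. Adgrl1 was at -2.09 in astroglial-rich members of the first experiment at 6 months. These ratios come from CPM with 1 added.

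Responses differed between kinds of member, tested as an interaction, for Cyr61 (3.12 on the log2 scale, astroglial-rich minus precursor-marker members), Hes1 (2.01), Sox4 (1.83), Myl9 (-3.17) and Crip1 (-2.49). In astroglial-rich members alone, Cyr61 passed the filter only through the IEG-high class. The IEG-high classes of both kinds were not at like levels of the ranking genes, with mean Fos at 3823 and 1296 CPM, as given above. Myl9 was too rare to be tested in precursor-marker members alone. Between 6 and 2 months they differed in all members for Btg2 (1.81), Hmgb2 (1.89) and Hmgn2 (0.98). In astroglial-rich members they differed for Tmsb4x (1.27), Btg2 (1.78), Zfp36l1 (1.23), Canx (-1.35) and Spry2 (1.504). Chemistry differed with age.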

How the results depend on the processing

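In place of 666 called genes in all members, DESeq2 1.42.0 called 422, the fit with no replicate block 14, no filter 1025, thinning 68 of 691 genes, the gate with no other-lineage UMI 269, Version 2 experiments 25, astroglial-rich members 246 and members with precursor markers 386. Leaving out 1 experiment gave 270 to 678. In astroglial-rich members, in place of 246, thinning gave 27 of 658 and leaving out 1 experiment 117 to 254. Total UMIs, 10% of pooled cells, other class limits, reversed ties, Version 3 experiments and leaving out the GFP+tdT+ and GFP-tdT- library stayed within 1.5 times. Interaction calls moved from 147 to 32 (against astrocytes) and from 3 to 11 (between ages) in astroglial-rich members. Thinning moved the difference in genes to -3.71. Ranking on thinned UMIs, with the cells still measured at full depth, moved the difference in log2 UMIs to 0.22. In percentage points, that ranking gave 0.21 (ribosomal), 3.8 (recombined) and 3.28 (cell-cycle). Astroglial-rich members gave 0.303 (ribosomal), 2.32 (recombined) and -1.19 (mitochondrial), and the top against the bottom 25% -0.631 (mitochondrial). The age difference of -0.0337 became 0.0417 (no other-lineage UMI), 0.00662 (median over cells) and 0.0156 (astroglial-rich). Against oligodendrocytes the log2 difference of 1.13 became 0.45 with 2 of 5 markers and 1.56 in astroglial-rich members, both uncalled. Signs turned for Sox4 (-0.16), Zfp36l1 (-0.24), Hes5 (-0.31) and Sox11 (-0.041) in members with precursor markers, Nfkbia (-0.11, Version 2), Kcnq1ot1 (0.070, no other-lineage UMI) and Btbd17 (-0.13, astroglial-rich). The 4 ranking genes kept their calls in classes made by other genes under total UMIs, each leave-one-out and astroglial-rich members. The possible part of the filter in those calls, given above, was not examined. Causes were not tested, but thinned and Version 2 fits hold fewer UMIs or experiments. Depth limits rare factors, most of which were not testable.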

Other observations

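The 191 members of neither large kind were led by another signal. Sox11, a factor of immature neurons, averaged 1582 ± 524 CPM in them (SD, n = the 6 experiments with at least 10 such cells), against 69.8 ± 49.9 CPM in astroglial-rich members. They made up 8.12% of the IEG-high and 2.9% of the IEG-low class of all members. The difference was not tested.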
